A study of Mus musculus with 6 samples.

Results

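The mitochondrial ribosomal protein genes encode the protein subunits of the mitoribosome, the ribosome inside mitochondria. They were chosen as the rows whose mouse symbol starts with Mrps or Mrpl followed by a digit, without pseudogene symbols, a rule that uses no measured value. It found 26 genes among 13685 rows, 8 of the small subunit and 18 of the large subunit. Of 78 symbols of this form in the gene name table, the other 52 are not analysed here. RNA was sequenced from CD4+ T cells of wild-type (WT) C57BL/6 mice, taken from spleen and mesenteric lymph node and kept as the CD25- fraction without regulatory T cells. One group received tunicamycin, an inhibitor of N-linked glycosylation that causes stress in the endoplasmic reticulum, at 0.15 µg/mL for 4 h. The other group was cultured for the same time with vehicle. Each group had 3 libraries, which the labels call technical replicates. They name no separate animals or cultures, and the p-values therefore reflect only how these libraries differ, which may be technical. The groups share genotype, tissue and cell isolation.

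The mitoribosome translates the few proteins that mitochondrial DNA encodes, all of them parts of the respiratory chain or of the ATP synthase. Its ribosomal RNAs come from mitochondrial DNA, while its proteins are encoded in the nucleus, made in the cytosol and imported. Resting T cells hold small mitochondria and enlarge their translation machinery on activation. Some subunits have counterparts in bacterial ribosomes, and others are found in mitochondria only.

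Summed counts over the rows analysed ranged from 10584276 to 11211270 in tunicamycin libraries and from 7412151 to 9495725 in vehicle libraries. All 26 genes passed the filter on low counts, with 103 counts or more in every library. Of the CD4 T cell list, 5 genes had a row, Cd3d, Cd3e, Cd28, Cd5 and Lat, and Cd4 was not among them. These 5 mark T cells in general and not CD4 T cells alone. They summed to between 1603 and 1672 TPM (length-scaled transcript abundance) in tunicamycin libraries, against 1567 to 1698 TPM in vehicle libraries. The markers of B cells, with 2 rows, summed to 0.661 to 1.13 TPM in tunicamycin libraries and 0.886 to 1.14 TPM in vehicle libraries. Plasma cell markers ran from 26.1 to 190 TPM in tunicamycin libraries and from 21.4 to 184 TPM in vehicle libraries, so that in both groups replicate 3 was lowest and replicate 2 highest. NK cell markers, with 3 rows, summed to 9.82 to 14.6 TPM in tunicamycin libraries and 8.23 to 10.6 TPM in vehicle libraries. The regulatory T cell list had 1 row, Il2ra (CD25), and Foxp3 and Ikzf2 were not among the rows. Il2ra stood at 7.74 to 14.1 TPM in tunicamycin libraries and 6.87 to 8.41 TPM in vehicle libraries. CD8 T cell markers, with 1 row, were at 10.5 to 11.9 TPM in tunicamycin libraries and 9.47 to 10.8 TPM in vehicle libraries. Macrophage markers, with 1 row, were at 3.55 to 10.4 TPM in tunicamycin libraries and 2.94 to 8.52 TPM in vehicle libraries. Ly6g of neutrophils was at 0 in every library. Their part in the results was not tested. In bulk RNA, fewer cells of a type and less RNA per cell cannot be told apart.

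The genes share features that the rule did not use. They lie on 14 chromosomes with at most 3 on any of them, so they form no cluster in the genome. The start of a protein-coding gene on the other strand lay within 1000 bases of the start of 11 of the 26 genes (42.3%), against 454 of 3069 protein-coding genes tested (14.8%). Sequence from 250 bases before to 50 after the annotated start was matched by symbol for 24 of the 26 genes, in the RefSeq annotation of GRCm38.p6. On either strand, the letters CCGGAAG, a core bound by ETS transcription factors, were present for 10 of 24 genes (41.7%), against 9.93% of 27025 genes with such a sequence and 19.1% of the 2312 that were also tested. The letters GCATGCG, a part of the site of nuclear respiratory factor NRF1, were present for 4 of 24 (16.7%), against 4.01% of all genes and 5.67% of those tested. A match on one strand can overlap a match on the other. The letters ATGGCGG, a core of the YY1 site, were also present for 4 of 24 (16.7%), against 4.69% of all genes and 8.78% of those tested. In all 4 genes these letters lay 17 to 30 bases after the annotated start. They begin with ATG, and whether they are part of coding sequence was not tested. CCAAT was present for 12 of 24 (50.0%), against 41.1% of all genes and 41.7% of those tested. The ER stress element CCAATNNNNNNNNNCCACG was present for 0 of 24, against 0.137% of all genes, and the amino acid response element TGATGNAA for 0 of 24, against 4.51%. The E-box CACGTG was present for 0 of 24 and 8.09%, the cyclic AMP response core TGACGT for 2 of 24 (8.33%) and 8.37%, and the GC box GGGCGG for 9 of 24 (37.5%) and 38.2%, with 60.1% for the GC box among tested genes. These are matches of letters and not measured sites.

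Windows of 3 genes are printed. Of the ETS, NRF1, YY1 and CCAAT letters, Mrpl22 holds 3 kinds, as does Mrpl33. Mrpl32 and Mrps12 hold fewer kinds, with repeated NRF1 letters in Mrpl32 and repeated CCAAT in Mrps12. Both genes are described further below. Capitals mark the ETS, NRF1, YY1 and CCAAT letters on either strand, and each runs 5′ to 3′ on the strand of the gene. Mrpl22 is on the plus strand at chr11:58171414-58171713 and holds ETS, NRF1 and YY1 letters. Mrpl32 is on the minus strand at chr13:14612988-14613287 and holds NRF1 letters at 3 places and an inverted CCAAT. Mrps12 is on the minus strand at chr7:28741772-28742071 and holds ETS letters and 4 CCAAT copies.
Mrpl22: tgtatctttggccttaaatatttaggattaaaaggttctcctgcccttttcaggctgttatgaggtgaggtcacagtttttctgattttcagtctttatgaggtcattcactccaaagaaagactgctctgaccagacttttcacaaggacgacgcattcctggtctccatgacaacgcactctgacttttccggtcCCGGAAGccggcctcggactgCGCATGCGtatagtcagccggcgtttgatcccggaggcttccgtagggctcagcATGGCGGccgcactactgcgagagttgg
Mrpl32: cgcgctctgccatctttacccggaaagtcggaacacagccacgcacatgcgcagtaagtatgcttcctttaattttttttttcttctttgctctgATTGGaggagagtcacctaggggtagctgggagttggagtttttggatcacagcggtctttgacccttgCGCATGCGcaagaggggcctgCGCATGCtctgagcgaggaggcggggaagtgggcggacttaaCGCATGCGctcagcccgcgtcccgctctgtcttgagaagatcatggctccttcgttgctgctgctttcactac
Mrps12: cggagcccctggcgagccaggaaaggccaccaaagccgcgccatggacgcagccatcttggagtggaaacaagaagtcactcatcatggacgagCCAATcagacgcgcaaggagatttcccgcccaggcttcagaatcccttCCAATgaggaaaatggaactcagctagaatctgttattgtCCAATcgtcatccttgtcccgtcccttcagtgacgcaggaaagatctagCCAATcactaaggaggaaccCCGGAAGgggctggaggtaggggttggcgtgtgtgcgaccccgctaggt

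Levels are compared between genes in deposited TPM, which accounts for transcript length. The median gene stood at 23.0 TPM over the 6 libraries, against 7.55 TPM for the median of 3613 genes tested. All 26 were above that median, at the 50.6th to 87.8th percentile of tested genes. The large subunit genes had a median of 24.8 TPM and the small subunit genes one of 18.8 TPM.

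Mrps21, the counterpart of a bacterial small subunit protein, had the highest level. It stood at 62.0, 60.7 and 57.6 TPM in tunicamycin replicates 1 to 3, against 66.1, 61.9 and 62.0 TPM in vehicle replicates 1 to 3. It was the only gene whose lowest library (57.6 TPM) lay above every library of the next gene in the order. Next came Mrpl32, a large subunit protein matured by the m-AAA protease, with 51.0, 51.1 and 45.5 TPM in tunicamycin libraries and 56.0, 49.4 and 46.0 TPM in vehicle libraries. Mrpl42, found in mitochondria only, had 47.8, 46.6 and 48.1 TPM in tunicamycin libraries and 36.9, 52.2 and 45.0 TPM in vehicle libraries. The tunicamycin libraries were close together and the vehicle libraries lay on both sides of them. Mrpl54, also found in mitochondria only, had 49.8, 49.4 and 45.3 TPM in tunicamycin libraries and 41.1, 32.3 and 48.1 TPM in vehicle libraries, with vehicle replicate 2 lowest. Mrpl41 had 36.3, 37.6 and 36.4 TPM in tunicamycin libraries and 41.4, 37.6 and 39.4 TPM in vehicle libraries. Mrpl34 had 45.6, 37.5 and 34.1 TPM in tunicamycin libraries, against 37.3, 29.6 and 34.1 TPM in vehicle libraries, and the groups overlapped.

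The lowest levels were those of Mrpl33 and Mrps28. Mrpl33, the counterpart of a bacterial large subunit protein, had 6.89, 6.22 and 9.25 TPM in tunicamycin libraries and 7.84, 8.11 and 9.52 TPM in vehicle libraries. Mrps28, which holds a domain like that of bacterial protein S1, had 10.2, 10.0 and 6.21 TPM in tunicamycin libraries, against 5.77, 8.86 and 9.64 TPM in vehicle libraries. One library of each group was low, and the groups covered almost the same range. Mrps28 also had the fewest reads, 255, 262 and 161 counts in tunicamycin libraries and 103, 161 and 223 in vehicle libraries. From the highest to the lowest gene the mean ran from 61.7 to 7.97 TPM. Of the 25 neighbouring pairs in this order, 24 had overlapping ranges over the 6 libraries.

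**Figure D1:**
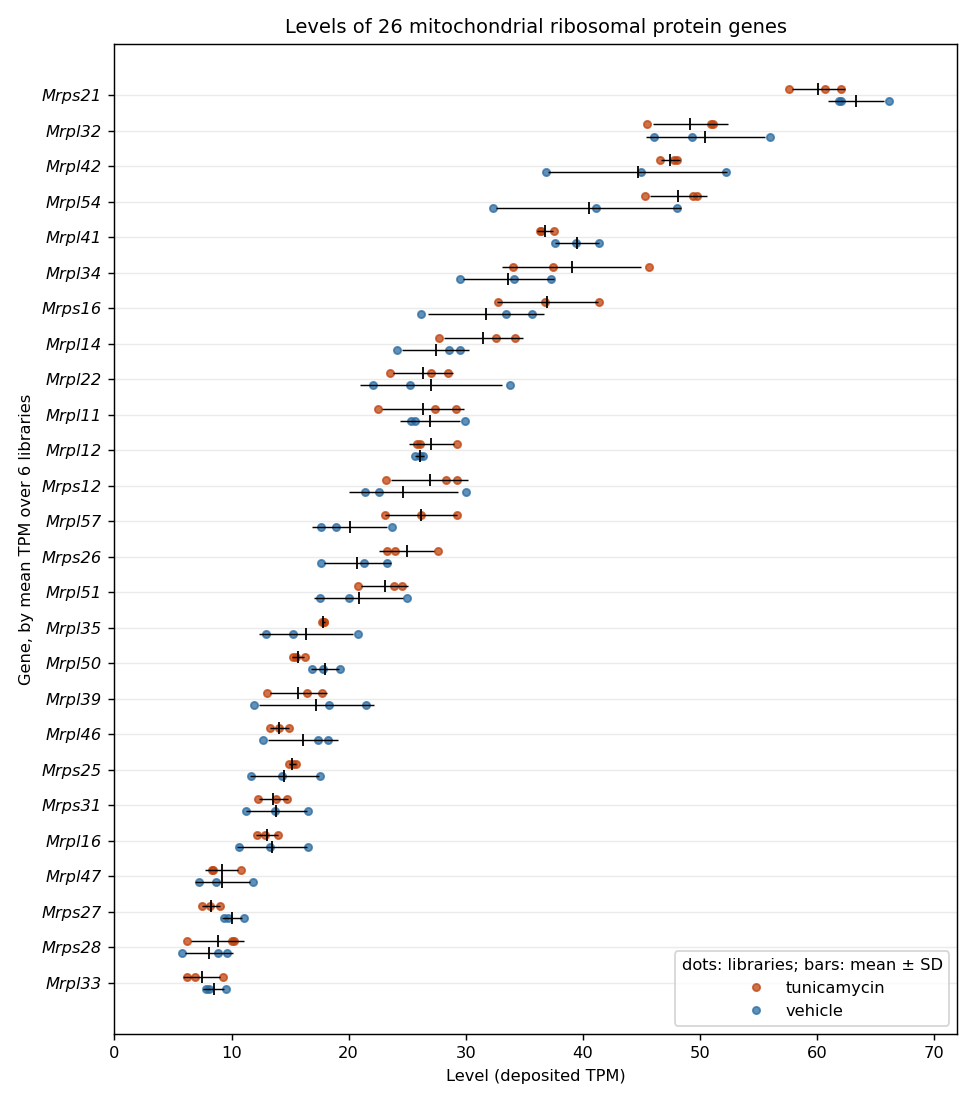
Level of each of the 26 genes in deposited TPM on a linear axis, with tunicamycin libraries (orange) above vehicle libraries (blue). Dots are libraries and black bars the mean ± SD of 3, and the genes run from a mean of 61.7 TPM (Mrps21) down to 7.97 TPM (Mrpl33).

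The comparison of tunicamycin with vehicle asks whether transcript levels respond to 4 h of the drug. No mitochondrial ribosomal protein gene passed the threshold, an adjusted p under 0.05 over the 3613 genes tested. Of the 26 genes, edgeR called 0 higher and 0 lower, and DESeq2 and limma on log2(TPM + 1) also called 0. Over all genes tested, edgeR called 0.083% in either direction, 0.0554% higher and 0.0277% lower. DESeq2 called 0.637%, and limma 0.0277% on log2(TPM + 1) and 0.0554% on log2(TPM + 0.1), so few calls were made anywhere. With independent filtering DESeq2 called 0.554% of the genes tested. Only 601 genes kept an adjusted p in that setting, with 0 of the 26 among them, so none of the 26 could be called there. At an unadjusted p under 0.05 edgeR had 1 of the 26 genes, DESeq2 1 and limma 1, and over all genes tested edgeR had 6.42%, and 3.18% in the lower direction. The log2 fold changes ran from -0.24 to 0.17, with a median of -0.04, against 0.00 over all genes tested. Of the 26, 10 were above 0 and 16 below.

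The intervals of the edgeR fit on counts bound how large a difference that fit can have missed. For 25 of 26 genes the 95% interval lay within a 1.5-fold change in either direction, against 52.8% of all genes tested. Among the 1912 tested genes that averaged at least 5 log2 CPM (counts scaled to library size), as 25 of the 26 had, it lay within that bound for 93.8%. The exception was Mrps28, at 0.04 with an interval of -0.54 to 0.62. All 26 intervals lay within a 2-fold change, against 64.6% of all genes tested. The intervals cover the spread between these libraries only, and those of other settings are not given. With offsets for effective transcript length, Mrpl57 was further from 0, at 0.32, and Mrpl32 was nearer, at -0.09.

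**Figure D2:**
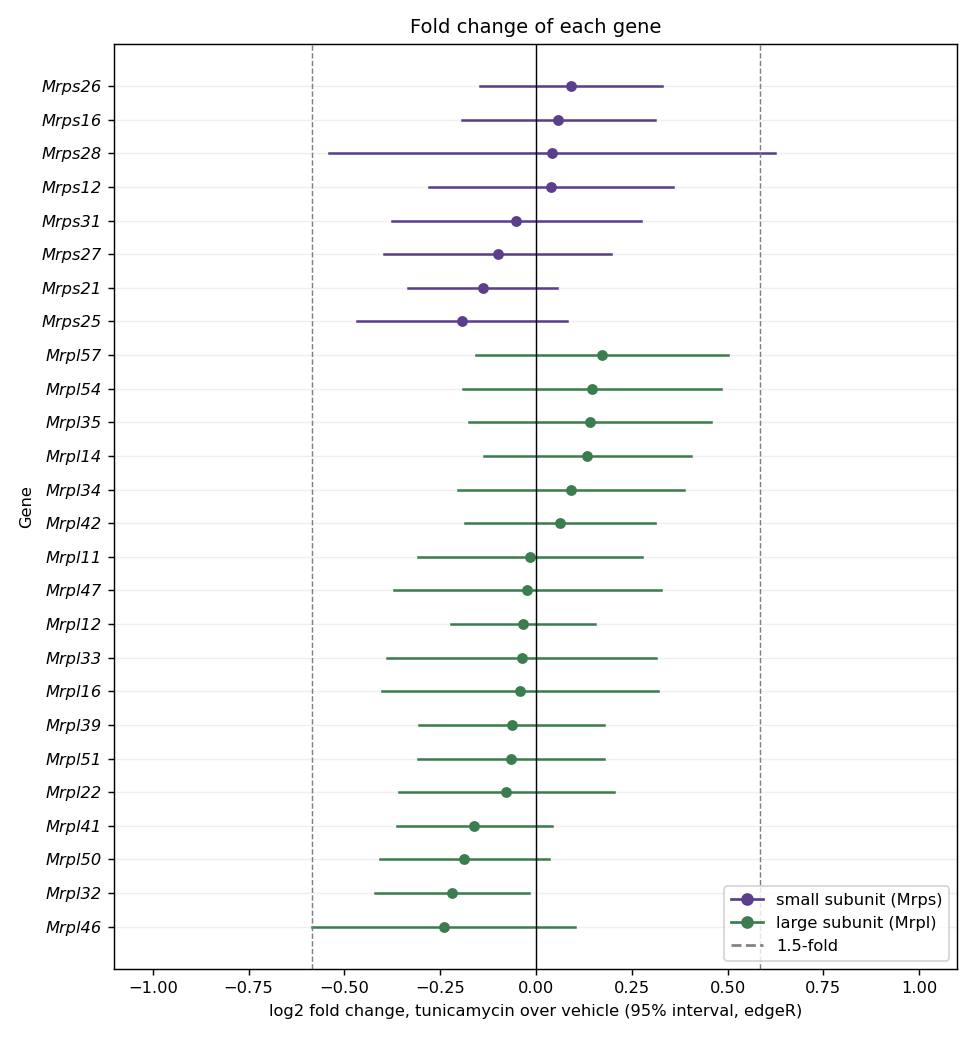
Fitted log2 fold change of each gene, tunicamycin over vehicle, with its 95% interval from edgeR, for the small subunit (purple) above the large subunit (green). Dashed lines mark a 1.5-fold change, and only the interval of Mrps28 crosses one of them.

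In the small subunit, 0 of 8 genes passed, with a median log2 fold change of -0.01. Mrps12, part of the decoding centre, had 70.9, 73.9 and 57.8 CPM in tunicamycin libraries and 55.5, 78.0 and 63.7 CPM in vehicle libraries. Its groups overlapped, and its log2 fold change was 0.04 (SE 0.15, edgeR adjusted p = 0.99). Mrps26, found in mitochondria only, had the highest value of the subunit, at 0.09 (95% interval -0.15 to 0.33). Mrps25, also without a bacterial counterpart, had the lowest, at -0.19 (95% interval -0.47 to 0.08). Mrps21 was at -0.14, Mrps27, a pentatricopeptide repeat protein, at -0.10, Mrps31 at -0.05 and Mrps16 at 0.06 on the log2 scale.

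In the large subunit, 0 of 18 genes passed, with a median log2 fold change of -0.04. Mrpl32 had the lowest unadjusted p of the 26 genes. It had 108, 104 and 96.0 CPM in tunicamycin libraries, against 128, 118 and 112 CPM in vehicle libraries, so every tunicamycin library lay below every vehicle library. Its log2 fold change was -0.22 (SE 0.09, edgeR unadjusted p = 0.035, adjusted p = 0.71). In TPM the groups of Mrpl32 overlapped, and with offsets for effective transcript length its log2 fold change was -0.09. Mrpl50, found in mitochondria only, had 71.2, 68.3 and 74.6 CPM in tunicamycin libraries, against 85.2, 80.4 and 78.1 CPM in vehicle libraries. Its log2 fold change was -0.19 (SE 0.10, edgeR adjusted p = 0.84). Mrpl41, likewise, had 84.5, 85.3 and 82.9 CPM in tunicamycin libraries, against 96.1, 88.6 and 97.7 CPM in vehicle libraries. Its log2 fold change was -0.16 (SE 0.09, edgeR adjusted p = 0.84). These 3 were the genes whose groups did not overlap in CPM, and all were lower in tunicamycin. They make 11.5% of the 26, against 12.6% of all genes tested in either direction 5.95% in the lower direction and 6.62% in the higher.

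The outermost values of the large subunit came from genes whose vehicle libraries were far apart. Mrpl46 had 51.6, 44.1 and 48.9 CPM in tunicamycin libraries, against 60.0, 44.1 and 66.7 CPM in vehicle libraries, a log2 fold change of -0.24 (SE 0.16, edgeR adjusted p = 0.86). That value was -0.39 without vehicle replicate 2 (edgeR unadjusted p = 0.013, adjusted p = 0.42) and -0.11 without vehicle replicate 3 (edgeR unadjusted p = 0.52, adjusted p = 0.96). Mrpl57 had 78.5, 70.3 and 59.6 CPM in tunicamycin libraries, against 58.5, 52.1 and 74.0 CPM in vehicle libraries, a log2 fold change of 0.17 (SE 0.15, edgeR adjusted p = 0.91). It was 0.07 without vehicle replicate 2 and 0.08 without tunicamycin replicate 1, and 0.33 without vehicle replicate 3. Within the vehicle group, both Mrpl46 and Mrpl57 were lowest in replicate 2 and highest in replicate 3. Mrpl11, at the base of the stalk that binds translational GTPases, had 68.7, 66.5 and 61.4 CPM in tunicamycin libraries and 71.2, 53.9 and 73.4 CPM in vehicle libraries, with the same low library. Mrpl12, the stalk protein, in human cells also reported to bind the mitochondrial RNA polymerase, had 117, 132 and 122 CPM in tunicamycin libraries and 124, 123 and 132 CPM in vehicle libraries. Its log2 fold change of -0.03 had the narrowest interval of the 26 genes, -0.22 to 0.15.

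The other large subunit genes lay between these. Mrpl54 was at 0.15, Mrpl35 at 0.14, Mrpl14, at the interface of the subunits, at 0.13, Mrpl34 at 0.09 and Mrpl42 at 0.06 on the log2 scale. Below 0 were Mrpl22, which lines the exit tunnel for the new protein, at -0.08, Mrpl51 at -0.07, Mrpl39 at -0.06, Mrpl16, near the peptidyl transferase centre, at -0.04, Mrpl33 at -0.04 and Mrpl47 at -0.02. None of these passed the threshold. Genes with a bacterial counterpart (14) had a median log2 fold change of -0.02 and mitochondria-specific genes (12) one of -0.06, a difference that was not tested.

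The median deviation of the genes from their own means over the 6 libraries was 0.04, -0.02 and -0.09 log2 CPM in tunicamycin replicates 1 to 3, and 0.03, 0.06 and 0.03 log2 CPM in vehicle replicates 1 to 3. In tunicamycin replicate 3, the lowest, 8 of 26 genes were above their own mean, against 16 in tunicamycin replicate 1, and the median deviation of all genes tested in tunicamycin replicate 3 was 0.01. Vehicle replicate 2 had the widest scatter. There, 14 of 26 genes lay at least 0.2 log2 CPM from their own mean, 8 below it and 6 above, against 2 to 8 genes in the other libraries. Of genes averaging at least 5 log2 CPM, 1906 have an annotated transcript sequence, and 292 of these lay at that distance or beyond there. That was close to the 269 and 276 of vehicle replicates 1 and 3, and tunicamycin libraries had 153 to 252. The lowest there was Mrpl54, at -0.46, and the highest Mrpl16, at 0.34. Between libraries of a group, the fitted coefficient of variation had a median of 12.9% over the 26 genes, against 16.7% over all genes tested and 9.39% over those averaging at least 5 log2 CPM. It was highest for Mrps28, at 26.04%, and lowest for Mrpl12, at 9.08%.

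**Figure D3:**
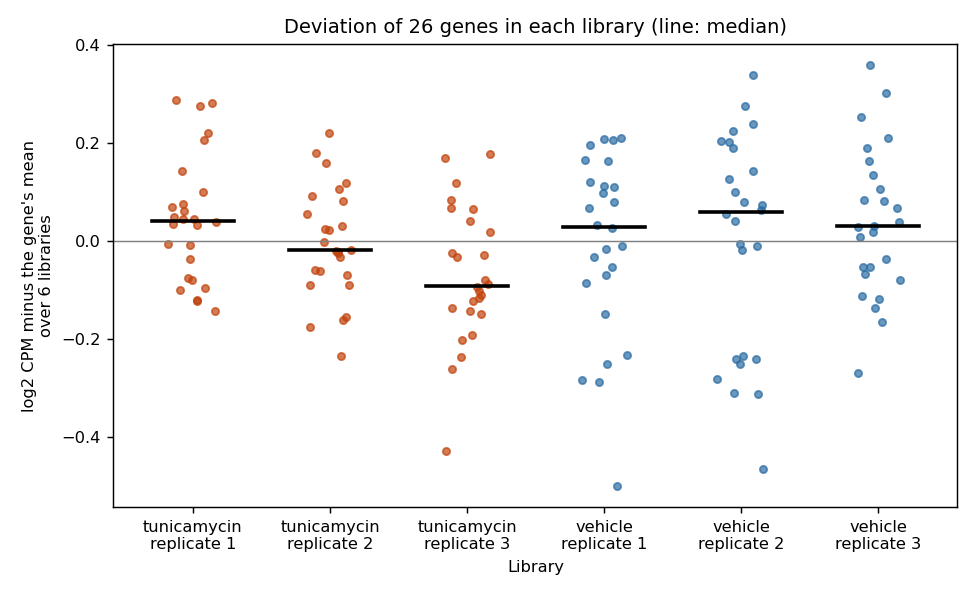
Deviation of each of the 26 genes (dots) from its own mean over 6 libraries, in log2 CPM, for tunicamycin (orange) and vehicle (blue) libraries. The black line is the median, lowest in tunicamycin replicate 3 at -0.09, and the dots spread widest in vehicle replicate 2.

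Summed levels depended on the scale. The 26 genes together had 687.7, 677.5 and 641.5 TPM in tunicamycin libraries, against 658.2, 636.9 and 634.0 TPM in vehicle libraries. The means were 669 ± 24.3 TPM in tunicamycin and 643 ± 13.2 TPM in vehicle (SD, n = 3 each), a difference of 4.03%, and the groups overlapped. In CPM the means were 1906 ± 56.0 in tunicamycin and 1936 ± 33.5 in vehicle (SD, n = 3 each), a difference of -1.57%. The 8 small subunit genes summed to 198, 194 and 193 TPM in tunicamycin libraries, against 189, 188 and 184 TPM in vehicle libraries, and these did not overlap. In CPM they summed to 604, 571 and 581 in tunicamycin libraries and 586, 590 and 604 in vehicle libraries, which overlapped. The ratio of the mean large subunit gene to the mean small subunit gene in TPM was 1.08 ± 0.041 in tunicamycin and 1.08 ± 0.022 in vehicle (SD, n = 3 each).

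The scales differ in several steps. CPM was scaled to the counts of the genes tested, and TPM was scaled over more than the rows analysed. Over those rows TPM summed to 319120 (replicate 3) to 330627 in tunicamycin libraries and to 331373 to 332870 in vehicle libraries. The part of this step in the difference was not tested. The counts were scaled by TMM factors of 1.01 to 1.02 in tunicamycin libraries and 0.967 to 1.00 in vehicle libraries, and TPM has no such factor. Without these factors the median log2 fold change of the 26 genes from counts was 0.01, and that of all genes tested 0.04. TPM also divides a count by an effective transcript length, read here from the ratio of count to TPM, which varied between libraries. Offsets for that length left the median of the 26 genes at -0.04. The log2 ratio of mean TPM exceeded the log2 fold change from counts for 19 of 26 genes, with a median excess of 0.06, against 74.2% of genes and a median excess of 0.05 over all genes tested with TPM above 0 in both groups. The excess reached 0.15 in either direction for 8 of 26 genes, against 652 of 3610 genes tested. Among the 8 were Mrpl57, Mrps25 and Mrps27, the last pair named after their values were seen. Mrpl57 was at 0.17 from counts and 0.38 in TPM, the largest TPM difference of the 26. With offsets for effective length it was at 0.32 (edgeR adjusted p = 0.70), and limma on log2(TPM + 1) gave 0.37 (unadjusted p = 0.027, adjusted p = 0.55). Mrps25 was at -0.19 from counts and 0.07 in TPM. Mrps27 was at -0.10 from counts and -0.28 in TPM, with 9.04, 8.20 and 7.47 TPM in tunicamycin libraries and 11.02, 9.39 and 9.68 TPM in vehicle libraries, which did not overlap. Its relative effective length was 1.05, 1.16 and 1.04 in tunicamycin libraries, against 0.797, 1.08 and 0.912 in vehicle libraries. With offsets for effective length, the log2 fold change of Mrps27 was -0.34 (edgeR adjusted p = 0.62). The longest length over the shortest was 1.64 for Mrpl47 and 1.58 for Mrpl39, the largest of the 26, and 1.11 for the median gene, against 1.08 over all genes tested. In TPM, 3 of 26 genes had groups that did not overlap, Mrpl41, Mrpl50 and Mrps27, all lower in tunicamycin, against 13.9% of all genes tested.

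**Figure D4:**
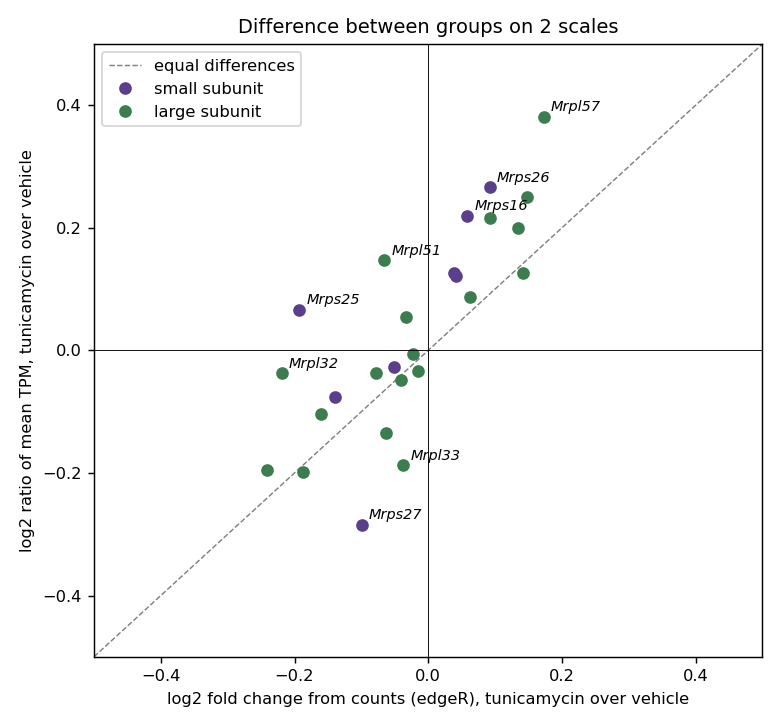
Difference between the groups for each of the 26 genes on 2 scales, the log2 fold change from counts (horizontal) and the log2 ratio of mean TPM (vertical), both tunicamycin over vehicle. The dashed line marks equal differences, 19 genes lie above it, and the 8 named genes lie at least 0.15 from it.

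Genes that work with the mitoribosome were compared in the same fit. Of 4 tested partners of the mitoribosome under other names, 0 passed, with a median of -0.01. Oxa1l, the insertase that places new proteins into the inner membrane, was at -0.12 (95% interval -0.25 to 0.01). Ptcd3, a pentatricopeptide repeat protein of the small subunit, was at 0.10 (95% interval -0.07 to 0.28). Of 10 tested genes of mitoribosome assembly and ribosomal RNA modification, 0 passed, with a median of 0.03. Rbfa, a factor of small subunit maturation, had 43.8 ± 2.26 TPM in tunicamycin and 36.5 ± 7.54 TPM in vehicle (SD, n = 3 each). Its log2 fold change was 0.16 (95% interval 0.00 to 0.32, edgeR adjusted p = 0.72). Of 4 tested translation factors, 0 passed, with a median of -0.01, and Mtrf1l, a release factor, was at -0.12 (95% interval -0.43 to 0.19).

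Further from the ribosome, 0 of 6 tested mitochondrial aminoacyl-tRNA synthetase genes passed, with a median of 0.11. Lars2, the leucyl enzyme, had 214 ± 70.6 TPM in tunicamycin and 240 ± 275 TPM in vehicle (SD, n = 3 each), so its vehicle libraries were far apart. Sars2, the seryl enzyme, shares its start region with Mrps12, at a distance of 172 bases, and was at 0.24 (95% interval -0.20 to 0.67). Of 5 tested genes of mitochondrial transcription and mRNA stability, 0 passed, with a median of -0.06, and Rexo2 was at -0.07. Of 10 tested protein import genes, 0 passed, with a median of -0.06, and Tomm20, a receptor of the outer membrane, was at -0.11 (95% interval -0.24 to 0.02). Of 6 tested mitochondrial stress targets, 0 passed, with a median of 0.07, and 1 had an unadjusted p under 0.05. This was Pck2, mitochondrial phosphoenolpyruvate carboxykinase, named after its value was seen. It had 21.7, 21.1 and 21.4 TPM in tunicamycin libraries, against 13.5, 17.7 and 16.8 TPM in vehicle libraries. The log2 fold change of Pck2 was 0.37 (95% interval 0.16 to 0.57, edgeR adjusted p = 0.36). Atf4, the transcription factor of this response, had 139 ± 6.14 TPM in tunicamycin and 136 ± 7.61 TPM in vehicle (SD, n = 3 each). For the transcripts that the mitoribosome translates, 0 of 13 tested mitochondrially encoded genes passed, with a median of -0.11, 6 of them at an unadjusted p under 0.05 (46.2%, against 6.42% of all genes tested and 9.57% of those averaging at least 5 log2 CPM). Of these 6, 5 were lower in tunicamycin, and mt-Nd6, named after its value was seen, was higher, at 0.51 (95% interval 0.12 to 0.89, edgeR adjusted p = 0.59). In TPM the groups of the lower genes mt-Nd3 and mt-Nd4l overlapped, and those of mt-Nd1, mt-Nd2 and mt-Atp8 did not. These were also named after their values were seen. For the cytosolic ribosome, 0 of 25 tested genes with ribosomal protein symbols passed, with a median of -0.08. The list, picked by symbol, also holds Rpl7l1 and Rps19bp1, which are not subunits of that ribosome. At an unadjusted p under 0.05 there were 8 (32.0%), and all 8 were lower in tunicamycin. The share was 6.42% of all genes tested, 3.18% in the lower direction. It was 9.57% of those averaging at least 5 log2 CPM, as all 25 did. Of these 8, the groups of Rpl35 and Rps26 overlapped in TPM. Those of Rplp1, Rpl23a, Rps7, Rpl23, Rps23 and Rpl37 did not. Rpl35 was at -0.28 from counts, with 1513 ± 82.0 TPM in tunicamycin and 1588 ± 60.2 TPM in vehicle (SD, n = 3 each). These genes were also named after their values were seen. Differences of the related lists from the median of the mitochondrial ribosomal protein genes were not tested.

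The genes with a neighbour on the other strand allowed 3 pairs to be set side by side, since the neighbours of the other 8 are not analysed here. Mrps27 and Ptcd2, whose starts are 81 bases apart, were at -0.10 and -0.13 (95% interval of Ptcd2 -0.32 to 0.06). Mrps12 and Sars2 were at 0.04 and 0.24. Mrpl57 and Ska3, a gene of chromosome segregation with starts 49 bases apart, were at 0.17 and -0.31, and Ska3 had an interval of -1.72 to 1.09. No neighbour passed the threshold. Annotated genes overlap 10 of the 26 genes, and whether counting used the strand is not given in the sources used here, so their counts could hold reads of the overlapping gene.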

How the data were processed

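RNA was sequenced in 6 libraries of mouse CD4+ T cells, 3 treated with tunicamycin and 3 with vehicle, grouped by their treatment label. The deposited table holds estimated counts per gene, of which 19.9% are not whole, and TPM values that the authors computed beside them. Per the submitters' processing notes, the tools were DESeq2, Salmon and bcl2fastq and the genome build GRCm39, with no roles given. Gene symbols, positions and promoter windows came from annotation of GRCm38, used for names and neighbours.

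Estimated counts were rounded and fitted with the quasi-likelihood test of edgeR 4.0.16 (R 4.3.3) after its filter on low counts and TMM scaling, without a replicate term, and p-values were adjusted by Benjamini and Hochberg over 3613 genes. An SE is the fold change divided by the root of F. DESeq2 1.42.0, limma 3.58.1 on log2(TPM + 1) or log2(TPM + 0.1), other scalings and filters, effective-length offsets and leaving out each library were alternatives. The test was also run on counts with known changes, simulated from the means and spread of the fit, with an outcome not given here. Counting error and library number limit the precision. Within each group, no pair of libraries agreed within sampling noise. Every member may be named. Values in each library are given for members at an unadjusted p under 0.05 or with groups that did not overlap, the 6 highest and 2 lowest in mean TPM, the highest and lowest fold changes, and Mrpl12, Mrps12 and Mrpl11. In related lists, up to 2 genes with the highest mean were named. The members and lists were chosen with earlier results of these data known.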

Additional observations from a re-analysis of the deposited data

How the results depend on the processing

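No mitochondrial ribosomal protein gene passed the threshold under any of 18 other settings, where 0 to 2 of them had an unadjusted p under 0.05 and the lowest adjusted p was 0.33. Over all genes tested, edgeR called 3, against 16 with no filter on low counts, 1 with at least 10 counts in every library, 23 with DESeq2, 20 with DESeq2 and independent filtering (chosen after seeing the data) and 1 with limma on log2(TPM + 1). Leaving out 1 library gave 1 (without vehicle replicate 2) to 5 calls (without vehicle replicate 3). The replicate block gave 36 calls, 0 of them in the 26 genes, and 6 with effective-length offsets. Same-numbered libraries correlated at 0.037, 0.187 and 0.107 over all genes tested, and at 0.324, 0.116 and 0.269 over the 1912 genes averaging at least 5 log2 CPM, a class that holds 25 of the 26 genes. In both sets each library correlated best with its own number, and plasma cell and macrophage marker sums followed the number in both groups, a hint of pairing from the data, which the labels do not state. The median log2 fold change of the 26 genes, -0.04, was 0.0305 and 0.0327 with limma on log2(TPM + 1) and log2(TPM + 0.1), and -0.07 to -0.01 without 1 library. That of the small subunit, -0.01, was 0.0418 with the replicate block and effective-length offsets, 0.0936 and 0.1024 with limma, and -0.14 (without vehicle replicate 1) to -0.0098 (without vehicle replicate 3) without 1 library, with -0.07 without tunicamycin replicate 2. The summed level differed by 4.03% in TPM and by -1.57% in CPM. The share of promoters with a GC box was 0.70 percentage points below that of all promoters (-0.70) and -22.6 points against promoters of tested genes. The causes were not tested. The sign of the fold change was the same under each of these 18 settings for 10 of 26 genes. The 3 libraries a group, and 103 counts for the lowest value (Mrps28), limit what could be detected.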

Other observations

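Mrpl23-ps1, a processed pseudogene that the rule on symbols left out, had 55.2, 53.3 and 52.1 TPM in tunicamycin libraries, against 54.7, 47.7 and 59.7 TPM in vehicle libraries. Its log2 fold change was -0.06 with an SE of 0.12, and its groups overlapped. Its parent gene is not analysed here, so reads of the 2 cannot be told apart in these values.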
